A study of Rattus norvegicus with 12 samples.

Results

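The haemoglobin-rich spots were 484 of the 4841 spots of 2 Visium sections of rat liver. A spot is a small area of tissue on the capture slide and holds RNA of several cells. In each section the spots were ranked by the share of their unique molecular identifiers (UMIs, counted RNA molecules) in 3 haemoglobin genes, Hba-a2, Hba-a3 and Hbb, and the highest 10% were taken. This gave 244 of 2437 spots in section A and 240 of 2404 in section B, which were set against the other 2193 and 2164 spots. Because the spots were chosen by these values, the values of the 3 genes are a description and were not tested. All rows recognised as globins by their names, here called the globin genes, were left out of the tests and of the totals to which other genes were scaled.

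Both sections, called A and B, were of healthy liver of male Wistar rats, with no treatment, and no age was given for them in the labels. The sections were the only spatial samples of a study that otherwise sequenced cells and nuclei of 2 other strains. Section A held 34449562 UMIs and section B 34827603. The study speaks of 2 rats, while the labels name no animal and the deposited names of both sections carry the same specimen number. Whether the sections came from separate animals is thus not settled here. The p-values speak only of these 2 sections. They rest on UMI counts and on variance pooled over genes, more than on each gene's own spread between the sections. Alb, the defining hepatocyte product, took 96601 counts per 1000000 UMIs (CPM, globin left out) in the haemoglobin-rich spots of A and 95155 in those of B. The positions of the spots were not analysed here, and 1793 spot barcodes occurred in both sections, of which 17 were of haemoglobin-rich spots in both.

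Haemoglobin is built of alpha and beta chains made in developing red blood cells. Reticulocytes, the youngest red cells in blood, have lost their nucleus but still carry globin mRNA, and in the liver blood flows through portal vessels, the sinusoids between the hepatocyte plates and the central veins. Mitochondria carry their own small genome, which encodes 13 proteins and the RNAs of the mitochondrial ribosome, and hepatocytes hold many of them. Hepatocytes next to the portal vessels make urea and glucose, whereas those around the central vein make glutamine and hold many cytochrome P450 enzymes.

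The alpha and beta globin genes have short promoters, shown here because the rule rests on the RNA made from them. The windows are the 120 bases before the gene start as RefSeq gives it on build GRCr8, in the direction of the gene, with capitals for matches on either strand to the CCAAT box, to the TATA box as TATAAA, to the CACCC box of globin promoters and to GATAA, the core of the motif of GATA factors. The alpha genes lie on the minus strand of chromosome 10, Hba-a1 at chr10:15842581-15842700, Hba-a2 at chr10:15829139-15829258 and Hba-a3 at chr10:15816944-15817063. The beta genes lie on the minus strand of chromosome 1, Hbb at chr1:167663722-167663841 and Hbb-bs, the RefSeq name for the gene listed here as LOC689064, at chr1:167631631-167631750.
Hba-a1: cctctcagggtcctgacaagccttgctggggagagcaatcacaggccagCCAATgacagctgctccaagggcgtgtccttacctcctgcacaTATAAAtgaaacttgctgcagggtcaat
Hba-a2: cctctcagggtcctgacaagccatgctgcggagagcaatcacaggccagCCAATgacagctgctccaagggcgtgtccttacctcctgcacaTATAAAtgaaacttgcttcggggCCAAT
Hba-a3: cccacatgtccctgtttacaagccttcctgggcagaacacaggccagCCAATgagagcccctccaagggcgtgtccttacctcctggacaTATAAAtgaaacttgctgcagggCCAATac
Hbb: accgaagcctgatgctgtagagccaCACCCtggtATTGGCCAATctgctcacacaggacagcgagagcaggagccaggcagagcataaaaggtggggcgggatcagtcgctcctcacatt
Hbb-bs: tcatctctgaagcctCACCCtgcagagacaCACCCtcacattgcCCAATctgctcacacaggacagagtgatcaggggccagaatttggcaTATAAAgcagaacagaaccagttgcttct

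The Hba-a1 and Hba-a2 windows were the same at 115 of 120 positions (95.8%). All 5 windows held CCAAT, which 19.9% of 33469 rat promoter windows of this length held. The 3 alpha windows and that of Hbb-bs held TATAAA, against 6.66% of all windows, and both beta windows held CACCC, against 29.5%. GATAA was found in 11.2% of all windows and in none of these 5. These matches describe the letters only. The gene table of the files, made on another genome build, holds Hba-a2 under 2 identifiers, and which RefSeq gene each stands for was not established.

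The choice drew a line through a continuous range. The median share of UMIs in the 3 genes was 0.731% in the haemoglobin-rich spots of A and 0.0745% in its other spots, and 0.644% and 0.0567% in B. The highest share was 5.70% in A and 9.30% in B. The last spot inside the limit had 42 of 9762 UMIs in these genes in A and 96 of 26716 in B, and the first outside had 143 of 33274 and 37 of 10321. The haemoglobin-rich spots held 42.7% of the UMIs of the 3 genes in A and 45.5% in B, but 7.53% and 7.05% of all UMIs other than globin. In 31 spots of A and 59 of section B none of the 3 genes had a UMI.

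**Figure D1:**
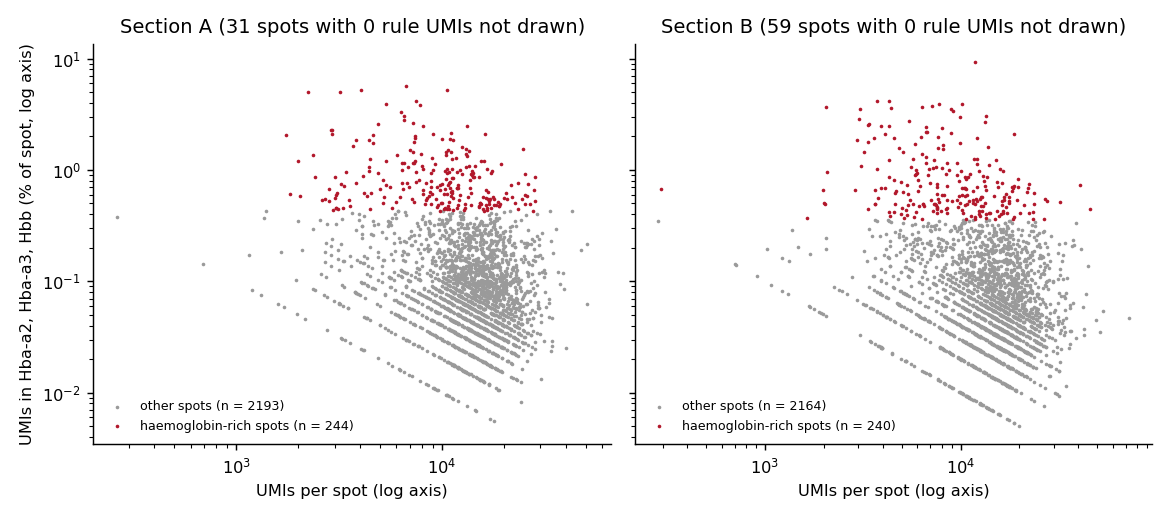
Share of the UMIs of each spot in Hba-a2, Hba-a3 and Hbb (percent, log axis) against its total UMIs (log axis), for section A on the left and section B on the right. Red points are the haemoglobin-rich spots and grey points the other spots; the rows of grey points are spots with the same small number of globin UMIs, and the red points reach further to the left, at low depth, than the bulk of the grey ones.

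Alpha globin RNA made up most of the signal that chose the spots. The Hba-a2 row ENSRNOG00000029886 had 56.9 UMIs per 10000 in the haemoglobin-rich spots of A and 6.40 in the others, and 56.8 and 5.34 in B. The other Hba-a2 row, ENSRNOG00000047321, had 31.4 and 3.39 per 10000 in A, and 29.5 and 2.60 in B. Hba-a3 had 590 UMIs over all spots of A and 504 in B, and Hbb had 795 and 640, few beside the Hba-a2 rows. The main beta globin row was LOC689064, which the rule did not use. It had 55.0 UMIs per 10000 in the haemoglobin-rich spots and 7.51 in the others of A, a ratio of 7.32, and 52.5 and 5.58 in B, a ratio of 9.41. When spots were ranked on LOC689064 alone, 204 of the 244 spots of A and 193 of the 240 of section B were chosen again. Alpha and beta globin RNA picked largely the same spots.

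The label was checked against genes of the red cell lineage that are not globins. The test summed the UMIs of the haemoglobin-rich and of the other spots in each section and compared the 4 sums by edgeR's quasi-likelihood test with the section as a term and Benjamini-Hochberg adjustment. Of 10202 genes tested, 186 were higher in the haemoglobin-rich spots (1.82%) and 95 were lower (0.931%). The 4 sums leave 1 residual degree of freedom, and the calls depended on the section term: without it 15 genes were higher and 0 lower, and DESeq2 called 23 higher and 42 lower. Of the 22 erythroid genes listed, 11 had enough UMIs to be tested, 8 were higher and 0 were lower. Their median log2 fold change was 1.24, against 0.00165 over all genes tested. A gene in the list could pass the filter on low counts through the haemoglobin-rich spots alone, so the count is a description. It says nothing of the other 11, among them Gata1, Klf1 and Rhag, which were not tested in this fit. With no filter on low counts, 17 of the list were tested, 8 were higher and 0 lower.

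Alas2, the enzyme that starts heme synthesis in red cell precursors, had 67 UMIs in the haemoglobin-rich spots of A and 58 in the much larger number of other spots. In section B it had 61 and 58. This was 25.9 and 1.83 CPM in A and 24.9 and 1.80 in B, a log2 fold change of 3.80 (adjusted p = 6.6e-72). Lgals5, a galectin of rat reticulocytes, had 18.6 and 1.76 CPM in A and 18.0 and 1.80 in B, a log2 fold change of 3.35 (adjusted p = 3.0e-44). Both genes were lower than the haemoglobin-rich value in the other spots by a like amount in the 2 sections. Ahsp, which binds free alpha globin, was higher by 3.09 on the log2 scale (adjusted p = 1.8e-12) on 31 UMIs in the haemoglobin-rich spots of both sections together. Slc4a1, the anion exchanger of the red cell membrane, was higher by 1.74, and Bpgm, which makes the 2,3-bisphosphoglycerate that lowers the oxygen affinity of haemoglobin, by 1.24. Ubb, Prdx2 and Gypc did not pass the test, with log2 fold changes of 0.09, 0.14 and 0.01. Ubb alone had 22783 UMIs in the other spots of A, and the list summed differed by 0.28 in A and 0.26 in B.

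Other genes of the largest fold changes also had few UMIs. Alox15, the lipoxygenase of reticulocytes, had 12 UMIs in the haemoglobin-rich and 18 in the other spots of A, and 10 and 8 in B, a log2 fold change of 3.39. Like the erythroid genes above, these low genes could pass the filter through the haemoglobin-rich sums alone, so their fold changes are given as a description. Epb41, which encodes a protein of the red cell membrane skeleton, had 10 and 4 UMIs in A and 2 and 7 in B, with a log2 fold change of 3.72, and a log2 ratio of 4.94 in A and 1.91 in B. Cdc25b, a cell cycle phosphatase, had the largest log2 fold change of all, 4.28, on 9 and 4 UMIs in A and 4 and 4 in B. RGD1565616, Cpe and Sept11 completed the 10 largest, each on at most 6 UMIs in the haemoglobin-rich spots of a section. LOC103694857, for which no other name was given, was well counted. It had 213 and 359 UMIs in A and 193 and 293 in B, a log2 fold change of 2.98. With spots ranked on LOC689064 alone its log2 fold change was 3.15, while those of Alas2, Lgals5 and Ahsp were 3.73, 3.29 and 2.97. Whether it is a globin gene that the choice by name missed was not established, so its value is a description. It was higher to a like degree in both sections. Such likeness did not hold for genes in general. Over the 7022 genes with at least 10 UMIs in each of the 4 sums, the log2 ratios of the 2 sections had a Spearman's rho of 0.17.

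**Figure D2:**
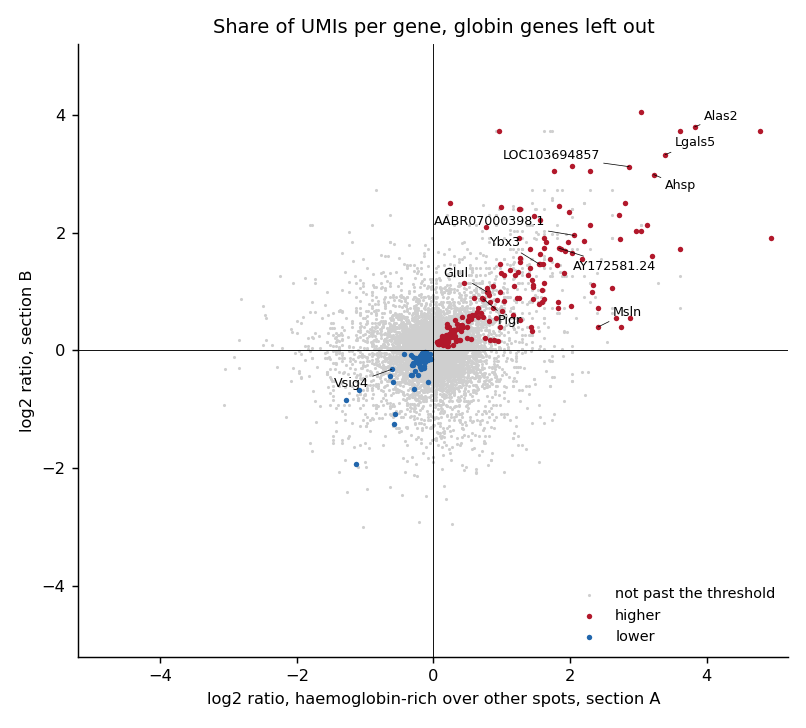
Log2 ratio of each gene's share of UMIs in the haemoglobin-rich over the other spots, section A on the x axis and section B on the y axis, for tested genes with a UMI in all 4 sums. Red points are genes higher and blue points genes lower at an adjusted p under 0.05, and grey points did not pass; Alas2, Lgals5, Ahsp and LOC103694857 stand at the upper right in both sections, and the blue points lie mostly close to 0.

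The lists of platelet, neutrophil and lymphocyte genes held no called gene. Of the 12 platelet genes 4 were tested, of 14 neutrophil genes 3 and of 17 lymphocyte genes 6, and 0 passed in either direction by edgeR or by DESeq2, which gave no adjusted p for 14650 of 15422 genes. At an unadjusted p under 0.05 there were 1, 0 and 1. Median log2 fold changes were 0.21, -0.01 and 0.03. Pf4, the platelet chemokine, had 6 UMIs in the haemoglobin-rich spots of A and 3 in B, and S100a8, a calcium-binding protein of neutrophils, had 1.93 and 2.04 CPM in the haemoglobin-rich spots and 1.42 and 2.42 in the others of sections A and B. A modest difference in these cells was not detectable at this depth. In spots, as in bulk samples, more cells of a type and more RNA per cell cannot be told apart.

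Myeloid genes moved in both directions. Of 9 monocyte and dendritic cell genes tested, 3 were higher and 0 lower, where 1.82% and 0.931% of all genes tested were. All 3 were of the antigen presentation pathway of MHC class II. None of the list passed after thinning to 5000 UMIs, with spots chosen on LOC689064 alone, without the section term or by DESeq2. By edgeR's quasi-likelihood test the adjusted p of Cd74 was 0.36 after thinning and 0.059 chosen on LOC689064 alone, while DESeq2 gave it none. Cd74, the invariant chain, had 159 CPM in the haemoglobin-rich spots and 113 in the others of A, and 141 and 123 in section B (log2 fold change 0.35, adjusted p = 3.2e-07). RT1-Db1 and RT1-Da, class II beta and alpha chains, were higher by 0.42 and 0.33. Of 9 Kupffer cell genes tested, 0 were higher and 3 lower. Marco, a scavenger receptor, had 78.1 and 96.6 CPM in A and 86.1 and 115 in section B (log2 fold change -0.37, adjusted p = 3.5e-05), and Vsig4, a complement receptor, and Cd5l were lower by 0.45 and 0.32. Fcna, a ficolin that was not in the list but among the 10 largest decreases, was lower by 0.53. The other Kupffer genes, C1qa, C1qb, C1qc, Cd68, Cd163 and Clec4f, had log2 fold changes between -0.14 and -0.02 and did not pass. With spots under 5000 UMIs left out, 1 of the 9 Kupffer genes was lower, and Marco, with a log2 fold change of -0.19, no longer passed. Values of Marco are split by mitochondrial rRNA further below.

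Zonal genes shifted by small amounts. Over all genes tested 1.82% were higher and 0.931% lower. Of 18 pericentral genes tested, 7 were higher and 0 lower, with a median log2 fold change of 0.15. Of 20 periportal genes 0 were higher and 9 lower, with a median of -0.12. The clearest by its p-value was Glul, the glutamine synthetase of the hepatocytes next to the central vein. It had 177 CPM in the haemoglobin-rich spots and 103 in the others of A, and 191 and 95.8 in B, a log2 fold change of 0.88 (adjusted p = 5.1e-53). The haemoglobin-rich sum was the higher one in both sections. The same spots also differed in depth and mitochondrial rRNA, and with spots chosen within classes of equal depth the log2 fold change of Glul was 0.84 and that of Alas2 3.24.

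The other pericentral genes that passed were Oat, Cyp1a2, Cyp2e1, Cyp7a1, Slc13a3 and Ahr. Cyp2e1, a cytochrome P450 of the pericentral zone, had 1633 CPM in the haemoglobin-rich spots and 1545 in the others of A, and 1813 and 1667 in section B (log2 fold change 0.10, adjusted p = 0.0029), and it did not pass by DESeq2 or after thinning to 5000 UMIs (log2 fold changes 0.09 and 0.07). Cyp7a1, the rate-limiting enzyme of bile acid synthesis, was higher by 0.37. Among periportal genes, Pck1, an enzyme of glucose synthesis, had 1532 and 1694 CPM in A and 1671 and 1837 in section B (log2 fold change -0.14, adjusted p = 7.5e-07). The urea cycle genes Arg1, Cps1 and Ass1 were lower by 0.12, 0.11 and 0.10, while Asl, of the same cycle, had a log2 fold change of -0.0047 and did not pass. The whole periportal list took 427 UMIs per 10000 in the haemoglobin-rich spots of A and 454 in the others, and 475 and 499 in B. Both zonal lists are split by mitochondrial rRNA further below.

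Haemoglobin-rich spots were also Glul-rich more often than the 10% that Glul-rich spots make up of each section. Of the haemoglobin-rich spots, 42 of section A (17.2%, exact 95% binomial interval 12.7 to 22.5%) and 40 of section B (16.7%, 12.2 to 22.0%) were among the 10% of spots with the highest Glul share. The intervals cover counting error only. In these spots Glul was at 647 and 856 CPM, which follows from their choice by Glul. For the 10% of spots highest in the summed pericentral list this share was lower, 10.2% and 12.9%, and for the periportal list it was 4.92% and 4.17%. For the sinusoidal endothelium list it was 14.3% and 14.2%, though the summed list differed by a log2 ratio of only -0.02 and 0.06. For the neutrophil list it was 9.43% and 7.08%. A share above 10% can thus occur without a difference in the summed UMIs, and the part of depth in these shares was not tested.

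Hepatocyte genes differed by small amounts in both directions. Of 17 rows for secreted hepatocyte proteins 1 was higher and 7 lower, with a median log2 fold change of -0.05, where 1.82% and 0.931% of all genes tested were higher and lower. Apoa2, an apolipoprotein, was the higher one, by 0.09. Outside the list, Mup4 and LOC259244 were higher by 0.24 and 0.19, and Cyp2c6v1, a cytochrome P450, by 0.16, all 3 named after their values were seen. Alb, which encodes albumin, was lower by 0.06, a call lost within depth classes, without spots under 5000 UMIs, after thinning, with spots chosen on LOC689064 alone and without the section term. Hp, which encodes the haemoglobin-binding protein haptoglobin, was lower by 0.11. Hp was the only one of 14 heme and iron handling genes tested that passed. Hmox1, Hamp and the ferritin genes were among those that did not. Pigr, the receptor that carries polymeric IgA into bile, had 357 CPM in the haemoglobin-rich spots and 215 in the others of A, and 324 and 177 in section B (log2 fold change 0.79, adjusted p = 2.0e-73). Csad, an enzyme of taurine synthesis, had 148 and 85.8 in A and 125 and 60.4 in section B (log2 fold change 0.90, adjusted p = 4.6e-41). Pigr and Csad were not in a list and were named after their values were seen.

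Vessel wall genes gave a mixed picture on low counts. Myh11, the smooth muscle myosin, had 12 UMIs in the haemoglobin-rich and 18 in the other spots of A, and 8 and 26 in section B (log2 fold change 2.52). Tagln, also of smooth muscle, was higher by 1.41, and these were 2 of 8 smooth muscle genes tested, against 1.82% of all genes tested. A low gene such as Myh11 could pass the filter on low counts through the haemoglobin-rich sums alone, so this count is a description. With no filter on low counts 2 of 12 were higher. After thinning 0 of 6 passed, and without the section term and by DESeq2 0 passed. DESeq2 gave no adjusted p for Myh11, nor for 14650 of 15422 genes in all, so its 0 says little for this list and those below. With spots chosen within depth classes 1 of 8 passed and the list's median went from 0.48 to 0.08. Of 9 vessel endothelium genes 0 passed by edgeR or DESeq2, with 2 at an unadjusted p under 0.05, and Lyve1 was the only one of 9 sinusoidal endothelium genes that did, with a log2 fold change of 0.31. Msln, a gene of the mesothelium that covers the liver, had 23 of its UMIs in the haemoglobin-rich spots of section A but 3 in B, against 53 and 30 in the others. The difference was 2.41 on the log2 scale in A and 0.40 in B, and no test without section A was possible. Of 9 stellate cell genes, 3 cholangiocyte genes and 11 immediate early and heat shock genes tested, 0 passed by edgeR or DESeq2, with 2, 0 and 4 at an unadjusted p under 0.05. Of 7 fibroblast and capsule genes 2 were higher, Msln and Mgp, and 1 lower, Dpt. Of 10 hypoxia response genes 0 were higher and 2 lower, where 0.931% of all genes tested were lower. The 2 were Ldha, by 0.09, and Egln3, which had 0 UMIs in the haemoglobin-rich spots of both sections and 37 and 39 in the others. Egln3 passed the filter on low counts through the other spots alone, so this count too is a description. With no filter 1 of 12 was lower.

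**Figure D3:**
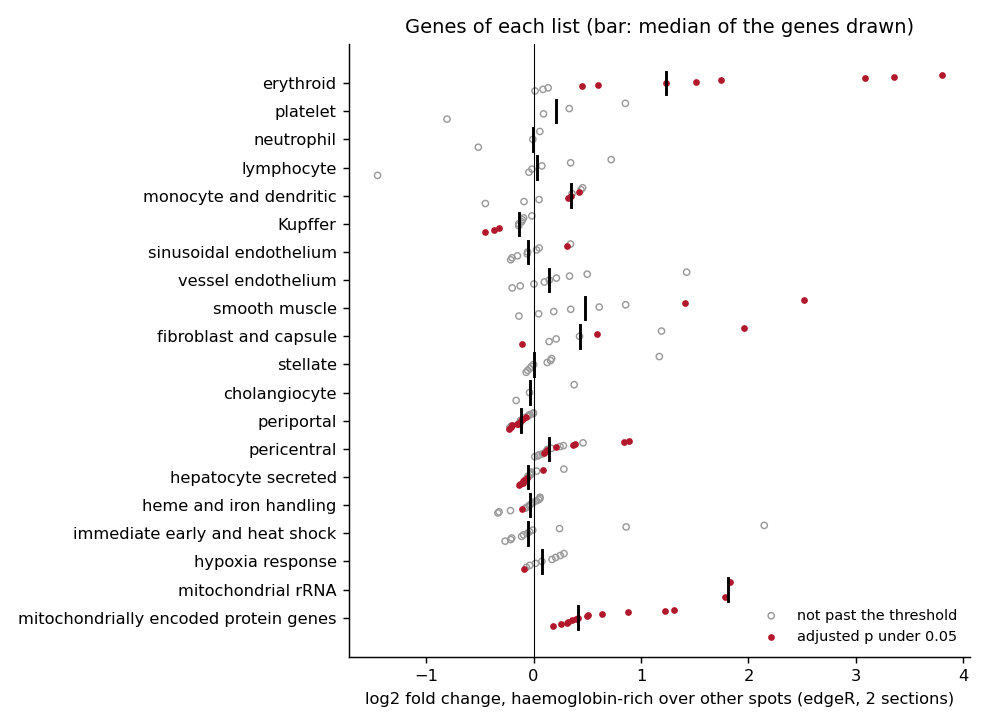
Log2 fold change (haemoglobin-rich over other spots, edgeR over 2 sections) of each tested gene of each list, with a black bar at the median. Filled red points passed at an adjusted p under 0.05 and open grey points did not; erythroid genes and the mitochondrial transcripts lie to the right of 0, and the periportal and secreted hepatocyte genes lie close to 0 on its left. Egln3, at 0 UMIs in the haemoglobin-rich spots, is not drawn.

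The haemoglobin-rich spots were shallower than the others. Without globin, their median was 10194.5 UMIs against 14168 in A, and 8581.5 against 14681.5 in B. The log2 ratio was -0.47 in A and -0.77 in section B (mean -0.62 ± 0.21, SD, n = 2). With 2 sections, an exact sign-flip test cannot give a two-sided p below 0.5, so this ratio was not tested. The ranges overlapped widely, from 1699 to 27903 UMIs in the haemoglobin-rich and 19 to 50788 in the other spots of A. The 2 shallowest of 10 depth classes held 107 of the 244 haemoglobin-rich spots of section A (43.9%) and 112 of the 240 of section B (46.7%), and the 2 deepest held 24 and 17. Over all spots the globin share was weakly related to total UMIs (Spearman's rho -0.17 over 2437 spots and -0.19 over 2404). The total is itself the denominator of that share, so the 2 measures are not independent.

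The mitochondrial rRNA features AY172581.24 and AY172581.9 took 1.502% of the UMIs other than globin in the haemoglobin-rich spots and 0.418% in the others of A, and 1.03% and 0.309% in B. The log2 ratio was 1.85 in A and 1.73 in section B (mean 1.79 ± 0.08, SD, n = 2). Both features were higher in the test as well, by 1.79 for AY172581.24 and 1.83 for AY172581.9, with adjusted p values too small for the software to hold. That call ended without the section term (adjusted p 0.60 and 0.81 by edgeR) and at 20% of spots (0.063 and 0.55), at log2 fold changes of 1.44 or more. Per spot the spread was wide: the median share in the haemoglobin-rich spots was 0.876% in A, with quartiles of 0.2504% and 3.19%, and 1.01% in B, with quartiles of 0.254% and 2.56%. In the other spots the medians were 0.170% and 0.140%, but single spots there reached 24.2% and 15.5%, above the highest haemoglobin-rich spot of either section.

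Depth moved with the mitochondrial rRNA too, and shallow spots of both kinds had more of it (rho of the rRNA share and total UMIs -0.51 in A and -0.43 in B). Within 10 classes of depth, each of a like number of spots, the haemoglobin-rich spots had the higher pooled rRNA share in 10 of 10 classes in both sections. The log2 ratio within a class ran from 0.16 to 2.32 in A, with a median of 0.83, and from 0.39 to 1.85 in B, with a median of 0.61. When the highest 10% by globin share were taken within each depth class, so that depth no longer differed, the log2 ratio was 1.22 in A and 0.76 in B. The difference was smaller at equal depth and kept its direction, and the part of depth in it was not tested further.

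**Figure D4:**
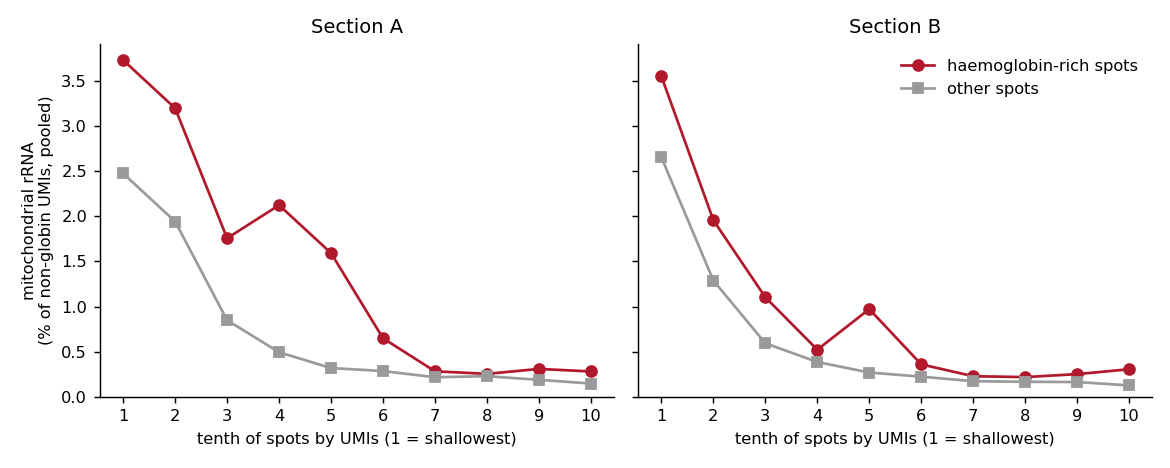
Mitochondrial rRNA (AY172581.24 and AY172581.9, percent of the UMIs other than globin, pooled over the spots) in each of 10 classes of spots by total UMIs, from the shallowest (1) to the deepest (10), for section A on the left and section B on the right. The red circles of the haemoglobin-rich spots lie above the grey squares of the other spots in all 10 classes of both sections, and both lines are lower in the deepest than in the shallowest class.

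Other mitochondrial transcripts followed. All 13 mitochondrially encoded protein genes were higher, against 1.82% of all genes tested, with a median log2 fold change of 0.41. Mt-nd4, a subunit of complex I, was higher by 0.51 and Mt-co1, of cytochrome c oxidase, by 0.36 (adjusted p = 1.4e-100 and 1.2e-74), and the largest were Mt-atp8, of the ATP synthase, with 1.31 and Mt-nd4l with 1.23. As a group they took 3.79% of the UMIs other than globin in the haemoglobin-rich spots and 3.04% in the others of A, and 3.13% and 2.48% in B. The rRNA features therefore differed by more than the protein genes. AABR07000398.1, a feature with no name in the files, had 2336 CPM in the haemoglobin-rich spots and 559 in the others of A, and 1248 and 323 in B, a log2 fold change of 2.01. AC134224.3, likewise without a name, was higher by 1.35 (adjusted p = 8.8e-152). When the spots were chosen within depth classes, 11 of the 13 protein genes were still higher, with a median of 0.20.

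The haemoglobin-rich spots differed widely in mitochondrial rRNA, and were divided here by a cut in that share. In section A 86 of the 244 (35.2%, exact 95% binomial interval 29.3 to 41.6%) and in section B 78 of the 240 (32.5%, 26.6 to 38.8%) were among the 10% of spots with the highest mitochondrial rRNA share. The intervals cover counting error only, and spots of one section are not independent. The haemoglobin-rich spots inside this rRNA-rich class were shallow, with a median of 6782.5 UMIs other than globin in A and 5025.5 in B. The remaining haemoglobin-rich spots had 11667.5 and 11418. The median share of the rule's genes was 0.958% against 0.632% in A and 0.972% against 0.573% in B. Pigr was at 570 CPM in the rRNA-rich ones and 294 in the rest of A, and at 725 and 238 in B.

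Pigr was at a like level in the rRNA-rich spots that were not haemoglobin-rich, at 619 and 692 CPM. Csad was at 166 and 174 CPM there. In the haemoglobin-rich spots outside the rRNA-rich class Csad was at 127 and 108 CPM, and in spots of neither class at 82.7 and 56.8. Alas2 was at 1.68 and 3.01 CPM in the rRNA-rich spots that were not haemoglobin-rich, on 2 UMIs in A and 3 in B. In the haemoglobin-rich spots of A, Alas2 was at 48.9 CPM (29 UMIs) inside the rRNA-rich class and 19.1 (38 UMIs) outside it. In those of B it was at 30.1 (13 UMIs) and 23.8 (48 UMIs). Alas2 was thus higher in haemoglobin-rich spots inside and outside that class, on few UMIs. AABR07000398.1 followed the mitochondrial rRNA: it was at 8869 CPM in the haemoglobin-rich spots inside that class and 395 outside it in A, and at 9555 in the rRNA-rich spots that were not haemoglobin-rich. These contrasts are between spots of the same sections chosen by measured values and were not tested. Haemoglobin-rich spots that were Glul-rich lay on both sides of the rRNA cut, with 19 of 42 in the rRNA-rich class in A and 17 of 40 in B.

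The study summarised each section by principal components of its spots. It read the first 2 components of both sections as zonation from the portal to the central vein side. That reading rested on marker loadings, pathway enrichment, the pattern on the tissue and correlation with hepatocyte clusters of nuclei. The haemoglobin-rich spots were placed here on the first. In section A the first component was built on 6222 genes and took 1.30% of the variance. Its 5 largest positive loadings were AY172581.24 (0.454), AY172581.9 (0.318), AABR07000398.1 (0.291), the Hba-a2 row ENSRNOG00000029886 (0.217) and LOC689064 (0.211). The other Hba-a2 row followed with 0.203, and Hbb and Hba-a3 stood at ranks 22 and 23. Of the 20 leading genes 14 were mitochondrial and 3 were globins, and 17 were among the genes higher in the haemoglobin-rich spots, a count that is no independent sign because both come from the same spots. The 5 largest negative loadings were those of AABR07048474.1 (-0.078), Hp (-0.070), LOC297568 (-0.055), Gc (-0.051) and Apoc3 (-0.051). Zonal genes had small loadings on it: the median was -0.006 for 20 periportal and -0.005 for 16 pericentral genes, while on the second component it was 0.045 and -0.071, with all 20 periportal genes positive and all 16 pericentral genes negative. The component was rebuilt here, was not compared with the study's loadings and need not be the study's own. With genes past either of the 2 filters, or with the 3000 most variable genes alone, its scores had a rho of at least 0.994 with these.

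The haemoglobin-rich spots lay toward the positive end of the first component in A. Their mean score was 1.59 SDs above that of the other spots, and 105 of 244 (43.0%, exact 95% binomial interval 36.7 to 49.5%) were among the 10% of spots with the highest scores. Over the 2437 spots the score was related to the mitochondrial rRNA share (rho 0.84), the globin share (0.59) and total UMIs (-0.53). Spots that were rRNA-rich but not haemoglobin-rich scored nearly as high, with a mean of 2.06 SDs over 158 spots, as those that were both, with 2.57 SDs over 86 spots. Spots that were haemoglobin-rich alone had a mean of 0.81 SDs over 158 spots, and all the rest -0.33. Both classes of spot thus scored above the rest. The interval covers counting error only. The loadings of the component include the globin genes of the rule, so part of this follows from the choice of the spots. With all globin genes left out of the component, the mean of the haemoglobin-rich spots was 0.88 SDs above that of the other spots. The rho of that score with the globin share was 0.28.

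In ranks, depth and mitochondrial rRNA together accounted for 71.7% of the variance of the score, and the globin share added 10.3 percentage points. With all globin genes left out of the component, the score still had a rho of 0.81 with the original, 81 haemoglobin-rich spots (33.2%) were in its highest 10% of spots, and the globin share added 0.284 points to depth and rRNA. The addition was thus 10.3 points where the component holds the globin genes that define the spots and 0.284 points where it does not. The rRNA features had the largest loadings, so the rRNA share was bound to account for part of the score. With mitochondrial features left out as well, depth and rRNA accounted for 4.13% and the globin share added 0.178 points. The first component of that fit was nearest to the original second (rho 0.996), so the 2 fits are not like for like.

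**Figure D5:**
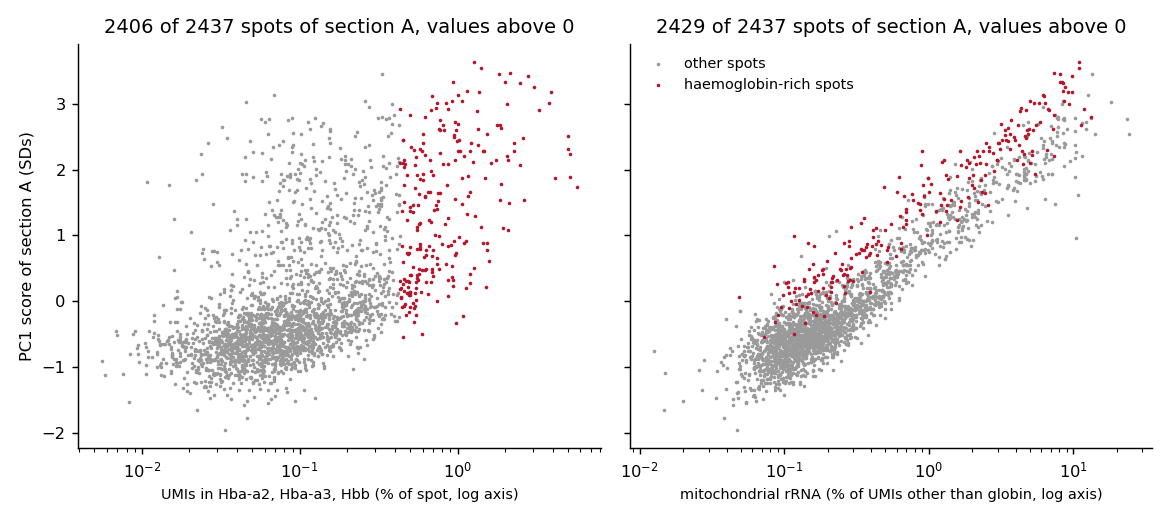
Score of each spot of section A on the first principal component (in SDs) against its share of UMIs in Hba-a2, Hba-a3 and Hbb on the left and its mitochondrial rRNA share on the right, both in percent on log axes, for spots with a value above 0. Red points are the haemoglobin-rich spots; the score follows the rRNA share over its whole range, with the red points along the upper edge of the band.

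The first 2 components of section A, with 1.30% and 1.12% of the variance, came in another order in several fits. When the component was fitted without the haemoglobin-rich spots, the first component had a rho of 0.22 with the original first and 0.95 with the original second, and the new second had 0.89 with the original first. Leaving out spots under 5000 UMIs gave 0.16, 0.98 and 0.94. Leaving out the mitochondrial features gave 0.07 and 0.997 for the new first component, with 0.84 between the new second and the original first. Without the globin genes as well, these values were 0.0045, 0.996 and 0.84. In these fits the component nearest to the original second, that of the zonal genes, came first. The second of them kept 197 of the 244 haemoglobin-rich spots, and those without mitochondrial features kept all. No fit without as many other spots was made, so that the part of these spots in the order was not tested.

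In section B the same genes were divided between the components. On the first, with 1.28% of the variance, AY172581.24 (-0.297) lay at the same end as the pericentral genes, all 16 of which were negative while all 20 periportal genes were positive. At that end were 94 of the 240 haemoglobin-rich spots (39.2%) in the outermost 10% of spots, and their mean was 1.11 SDs from that of the other spots. With genes past either filter this share was 19.6%, and with genes in at least 1% of spots 20.0%. With all globin genes left out it was 9.58%, and the mean was 0.34 SDs from that of the other spots. On the second component AY172581.24 led with 0.377, and 101 haemoglobin-rich spots (42.1%) were in the 10% at its end. At that end lay 17 of 20 periportal and 0 of 16 pericentral genes, so it was the opposite zonal end to that of the first component. Without the haemoglobin-rich spots, the first component of section B kept a rho of 0.86 with the original.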

How the data were processed

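UMI counts per gene and spot were used as the authors deposited them, unnormalized whole-number counts from Space Ranger 1.1.0 (submitters' processing notes, which also name Cell Ranger 3.1.0), on Rattus norvegicus 6.0 with Ensembl annotation. The sections were prepared with the 10x Visium 3′ kit. The 10% of spots and the gene lists were chosen with earlier results of these data known. UMIs were summed over haemoglobin-rich and other spots per section, globin genes were removed, and the 4 sums were tested with edgeR 4.0.16 in R 4.3.3 (TMM, default filter on low counts, robust quasi-likelihood, section as a term, adjusted p under 0.05). Residual degrees of freedom were 1, so the test leans on variance pooled over genes. Components were rebuilt after the study's outline, without Seurat: genes detected in 5% or more of the spots and whose highest count was 3 or more (the study's wording also allows either filter alone), sctransform 0.4.2 with 2000 genes sampled, and irlba 2.3.5.1, with the sign set by a negative loading of Cyp2e1. Named genes were list genes, the 10 largest changes in each direction, AABR07000398.1 and the ends of the first component; a few others, Pigr and Csad among them, were named after their values were seen. Alternatives were other size factors, DESeq2 1.42.0, other filters, no section term, other shares of spots, depth matching and thinning to 5000 UMIs. Both scripts were tested on simulated data. The 4 nuclear-retained RNAs listed were not analysed here. The cells and nuclei of the series were not used here.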

Additional observations from a re-analysis of the deposited data

How the results depend on the processing

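The section entered as a block, since it is the only pairing of the sums; without the replicate block 15 genes were higher and 0 lower (679 at an unadjusted p under 0.05), and 5 of the 8 erythroid genes, Glul and 1 mitochondrial protein gene kept their call, while the mitochondrial rRNA features and AABR07000398.1 did not. DESeq2 gave 23 higher and 42 lower, with no adjusted p for 14650 of 15422 genes, Alas2 and Glul among them. With no filter on low counts, 120 were higher and 164 lower. Chosen within 10 depth classes, 108 were higher and 55 lower, 93 and 40 of them among the original calls. Thinned to 5000 UMIs, 60 were higher and 24 lower. With 5% of spots 152 were lower. Chosen on all globin genes, an alternative added after seeing the data, 122 were higher and 61 lower, and on LOC689064 alone, also added, 100 and 36. Other size factors, library sizes without mitochondrial features, 20% of spots and leaving out spots under 5000 UMIs kept both counts within 1.5 times. No test was possible with a section left out.

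The depth ratio was -0.015 within depth classes by construction, and -0.77 to -0.47 in the single sections. The mitochondrial rRNA ratio was 2.31 at 5% of spots, 1.44 at 20%, 0.99 within depth classes, 1.70 without spots under 5000 UMIs, 1.63 after thinning and 1.603 chosen on LOC689064 alone; single sections gave 1.73 to 1.85. At 20% of spots neither rRNA feature nor AABR07000398.1 passed the test, on log2 fold changes of 1.44, 1.44 and 1.61. The share of haemoglobin-rich spots in the rRNA-rich class was 20.6% within depth classes, and 32.5 to 35.2% in single sections. Of the haemoglobin-rich spots of section A, the share in the outermost 10% of spots of the first component was 33.2% without globin genes and 31.1% on log-normalized counts. The second component gave 11.1% at its pericentral end, and single sections 39.2 to 43.0%. In the following fits the first component was nearest to the original second, so their shares belong to ends of a zonal axis and are not comparable with 43.0%. Without mitochondrial features the end scored was the pericentral one (12.7%). It was the periportal one without both (2.46%), fitted without these spots (6.97%) and without spots under 5000 UMIs (4.06%). Genes past either filter, the 3000 most variable genes, and both together, added after seeing the data, gave 42.6, 43.0 and 43.0%. For 23 named genes, 223 of 263 alternative values kept their call, 40 lost it and 0 changed direction. Alternatives that gave no adjusted p, as DESeq2 did for Alas2 and Glul, are not among the 263. The cause of these changes was not tested.

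The Kupffer, periportal and pericentral counts rest on small shifts: after thinning 0 of 9, 4 of 20 and 2 of 17 genes passed, and chosen on LOC689064 alone 1, 5 and 1. The erythroid count was 5 to 8 under the edgeR alternatives and 0 by DESeq2, which gave no adjusted p for Alas2, Lgals5 or Ahsp. Precision was set by UMIs per sum, and spots of one section are not independent.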
